A study of Mus musculus with 6 samples.

Results

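The genes that make, import, phosphorylate and dephosphorylate creatine were followed in full-thickness dorsal skin by bulk RNA-seq. The 7 genes, Gatm, Gamt, Slc6a8, Ckb, Ckmt1, Ckmt2 and Alpl, were chosen by symbol for their role in the pathway, out of 21959 genes in the deposited table, and all 7 passed the expression filter that left 14875 genes for testing. Male C57BL/6 mice aged 7 weeks were shaved in telogen, and the shaved skin received either vehicle (dipropylene glycol in distilled water) or 3% rebamipide, a gastroprotective drug, every day for 7 days, with 3 mice in each group. Both groups were wildtype, shaved alike and sampled at the same time, and each group has 3 libraries. The total counts per library were 32709801 to 39915276.

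Creatine is made from arginine and glycine by Gatm, which yields guanidinoacetate, and by Gamt, which methylates it. Slc6a8 carries creatine into cells. Creatine kinases move phosphate between ATP and creatine, with Ckb (brain type) and Ckm (muscle type) in the cytosol, and Ckmt1 (ubiquitous type) and Ckmt2 (sarcomeric type) in mitochondria. In thermogenic fat, Ckb and the phosphatase TNAP, which is encoded by Alpl, have been described as acting in a cycle that spends ATP by making and breaking phosphocreatine. Alpl is also known from the dermal papilla, endothelium and bone, Ckmt1 from epithelia, and Ckmt2 and Ckm from striated muscle.

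Alpl was the only one of the 7 genes called higher in rebamipide-treated skin, and none was called lower. The call was an adjusted p-value under 0.05 by edgeR's quasi-likelihood test over all 14875 genes, at which 14.1% of all genes were higher and 6.51% lower, so 1 of 7 was a share near the background. The genes assigned to fat-type creatine cycling did not move together in normalized CPM: Alpl rose, Ckb stayed within the range of the vehicle libraries and Gatm had a negative, uncalled fold change. Under the cut-offs of the study (p below 0.05 before adjustment and a change beyond 1 on the log2 scale), edgeR gave 1 of the 7 higher and 0 lower (14.3% and 14.5% of all genes). Run on the same counts, DESeq2, for which these cut-offs were set, called 1 higher, Alpl, and 1 lower, Ckmt1 (14.5% and 18.2% of all genes). Ckmt1 had a DESeq2 adjusted p = 0.0974. For 1 gene, Alpl, the lowest rebamipide value exceeded the highest vehicle value (24.5% of all genes), for 1, Ckmt1, the reverse held (24% of all genes), and the groups overlapped for the other 5 (51.5% of all genes). These counts are of TMM-normalized CPM and depend on the scaling. By the deposited FPKM, scaled by total counts, Ckb, Gatm and Slc6a8 also lay below every vehicle library in every rebamipide library. The share of all genes that did so by FPKM was not taken. All tested genes together had a median of -0.17 on the log2 scale after TMM normalization and -0.78 with scaling by total counts alone, under which 1258 genes were higher and 3752 lower, in place of 2093 and 968.

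The skin label was checked against marker genes before the members were compared, since 1 library stood apart. The third rebamipide library held 0 counts of Krt14 and 4 counts of Krt5, keratins of basal keratinocytes, where the other 5 libraries held 6102 to 64371 and 5368 to 77535, and over all 8 keratinocyte markers it held 0 to 51 counts. The epidermal markers were thus at or near 0 in that library. The keratinocyte list (mean log2 CPM) was lower in rebamipide libraries 1 and 2 as well, at 7.69 and 6.86 against 8.88 to 9.77 with vehicle. Whether the samples held the same layers of skin was not tested, a limit on every comparison of the groups and on every value of rebamipide library 3. The fast skeletal muscle list (10 genes, mean log2 CPM) was at 3.85 in rebamipide library 3, against 7.69 to 10.28 in the others. The brown adipocyte list was at 1.76 to 3.02 with vehicle and at 6.88 to 8.19 with rebamipide. Values without rebamipide library 3 are given beside the fold change of each member. In bulk tissue, fewer cells of a type and less RNA per cell cannot be told apart.

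**Figure D1:**
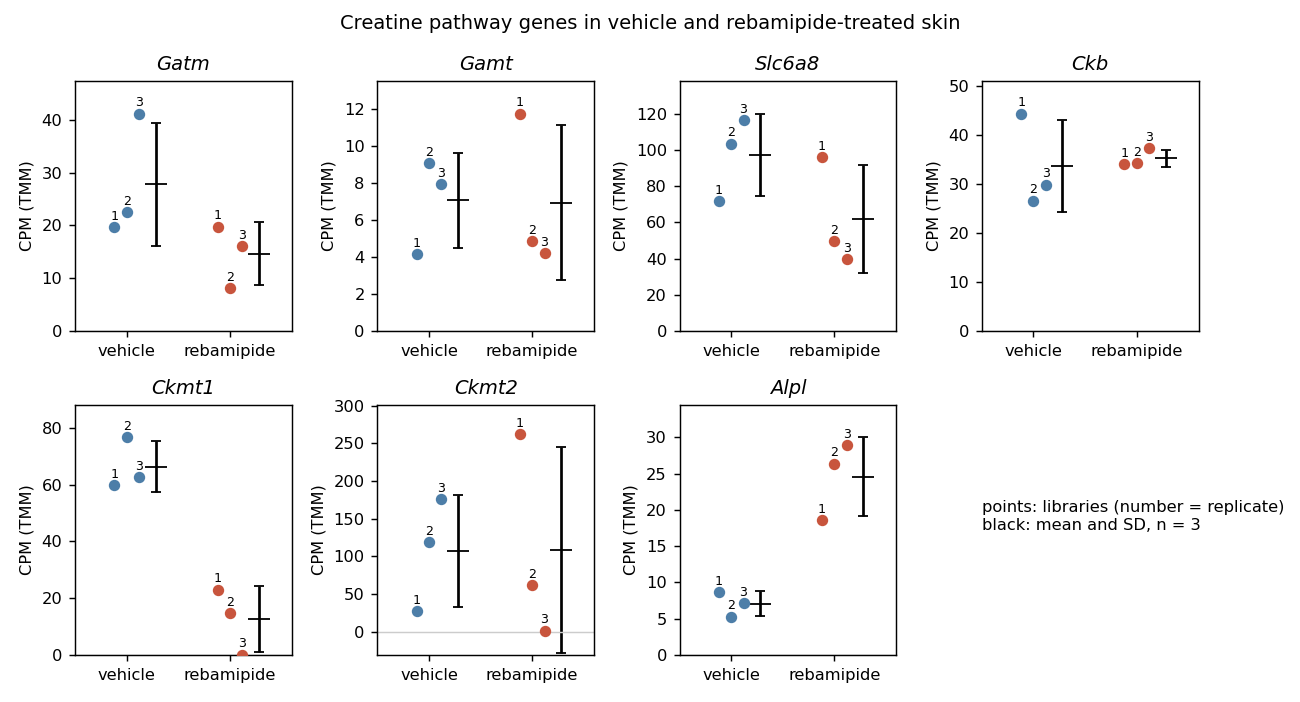
Normalized CPM (y axis) of the 7 genes in 3 vehicle (blue) and 3 rebamipide (red) libraries; points are single libraries, and black marks give the mean and SD. Alpl is higher in every rebamipide library, Ckmt1 is lower in every one, and the remaining 5 genes overlap.

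Gatm (ENSMUSG00000027199, chromosome 2, 122424948 to 122441784, GRCm39 as in the deposited table) encodes the mitochondrial arginine:glycine amidinotransferase that starts creatine synthesis. It was at 19.7, 22.5 and 41.1 normalized CPM with vehicle and at 19.8, 8.14 and 16.1 CPM with rebamipide. The third vehicle library was highest and the second rebamipide library lowest, and the first library of each group had nearly the same level. The mean was 27.8 ± 11.7 CPM against 14.7 ± 5.96 CPM (SD, n = 3), with a log2 fold change of -0.92 ± 0.44 (standard error, edgeR adjusted p = 0.17). Without rebamipide library 3 the log2 fold change was -0.98 (edgeR adjusted p = 0.255), and without vehicle library 3 it was -0.50 (edgeR adjusted p = 0.448). With limma on log2(FPKM + 1), which keeps the scaling by total counts, Gatm was called lower (-1.32, limma adjusted p = 0.0443). That fit called 4570 of 14875 genes lower.

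Gamt, the methyltransferase of the second step (ENSMUSG00000020150, chromosome 10, 80093985 to 80096846), was at 4.19, 9.1 and 7.93 CPM with vehicle and at 11.8, 4.87 and 4.24 CPM with rebamipide. The first rebamipide library was the highest of all 6, and the other 2 lay near the lowest vehicle library. The log2 fold change was -0.02 (standard error 0.52, edgeR adjusted p = 0.975), and 0.24 without rebamipide library 3.

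Slc6a8, the creatine transporter (ENSMUSG00000019558, chromosome X, 72716756 to 72726108), was at 71.9, 103 and 116 CPM with vehicle and at 96, 49.8 and 39.8 CPM with rebamipide. Rebamipide libraries 2 and 3 were below every vehicle library, and the first lay within the vehicle range. The mean was 97.2 ± 22.8 CPM against 61.9 ± 30 CPM (SD, n = 3), with a log2 fold change of -0.65 ± 0.38 (standard error, edgeR adjusted p = 0.244). Slc6a8 was called lower once the first rebamipide library was left out (-1.11 on the log2 scale, edgeR adjusted p = 0.0382), whereas leaving out the third gave -0.41 (edgeR adjusted p = 0.51). The fit without the first rebamipide library called 1971 of 15345 genes lower.

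Ckb, the cytosolic creatine kinase of brain and fat (ENSMUSG00000001270, chromosome 12, 111635795 to 111638772), was at 44.4, 26.7 and 30 CPM with vehicle and at 34.2, 34.3 and 37.4 CPM with rebamipide. All 3 rebamipide values of normalized CPM lay inside the vehicle range, and they differed among themselves by 1.09-fold from lowest to highest. By deposited FPKM every rebamipide library was instead below every vehicle library, at 8.85 to 10.95 against 11.4 to 19.6. The mean was 33.7 ± 9.44 CPM against 35.3 ± 1.8 CPM (SD, n = 3), with a log2 fold change of 0.07 ± 0.24 (standard error, edgeR adjusted p = 0.853) that became -0.56 with scaling by total counts alone (edgeR adjusted p = 0.127). Without rebamipide library 3 it was 0.03. Of the 8 brown adipocyte genes 5 rose in the same libraries and 0 fell, where 14.1% of all genes rose and 6.51% fell. Those with the smallest p-values were Otop1, a proton channel (0.12 to 0.528 CPM with vehicle, 191 to 420 CPM with rebamipide), Ucp1, the uncoupling protein (0 CPM in all 3 vehicle libraries, 2669 to 8591 CPM with rebamipide), and Cidea, a lipid droplet protein (15.6 to 58.3 and 1552 to 3543 CPM). Elovl3, a fatty acid elongase on the same list, lay the other way, at 129 to 238 CPM with vehicle and 33.3 to 83.1 CPM with rebamipide (edgeR adjusted p = 0.0575), and Zic1 overlapped between the groups (edgeR adjusted p = 0.89). Of the 50-base stretches in Ckb transcripts of the GENCODE annotation for GRCm38, 9.98% also occurred in transcripts of Ckb-ps1, Ckb-ps2 or Gm12892, so part of the Ckb reads could have been left uncounted or shared, while for the other 6 genes and Ckm the share was 0%.

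Alpl (ENSMUSG00000028766, chromosome 4, 137469044 to 137523695) encodes tissue-nonspecific alkaline phosphatase. It was at 8.71, 5.28 and 7.14 CPM with vehicle and at 18.5, 26.4 and 28.9 CPM with rebamipide. The lowest rebamipide library was above the highest vehicle library. The mean rose from 7.04 ± 1.72 CPM to 24.6 ± 5.4 CPM (SD, n = 3), a log2 fold change of 1.80 ± 0.30 (standard error, edgeR adjusted p = 0.0146), or 3.49-fold. It was also called without rebamipide library 3 (log2 fold change 1.68, edgeR adjusted p = 0.0415) and with scaling by total counts alone (1.16, edgeR adjusted p = 0.0286). Without the second vehicle or the second rebamipide library the edgeR adjusted p-values were 0.0789 and 0.0722, at changes of 1.604 and 1.757 on the log2 scale, in fits where 0 and 1 of all genes were called (4116 and 4062 at an unadjusted p-value under 0.05), and DESeq2 called Alpl in both (adjusted p = 0.000178 and 6.05e-05).

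Several cell type lists moved between the groups along with Alpl, and their counts stand beside 14.1% of all genes higher and 6.51% lower. The endothelial list (8 genes) had mean log2 CPM of 4.4, 4.94 and 5.64 with vehicle and 6.6, 6.98 and 7.15 with rebamipide, with 5 of 8 genes higher. The adipocyte list (12 genes) was at 6.9 to 8.38 with vehicle and 9.47 to 9.98 with rebamipide, with 8 of 12 higher. The dermal papilla list, a site where Alpl is a known marker, was at 1.63 to 3.44 and at -0.91 to 2.01, with 1 of 9 genes higher (Sox18) and 1 lower (Trps1). The neutrophil list (7 genes), another Alpl-expressing type, was at -1.2 to -0.39 and at -1.35 to -0.85, with 0 of 5 tested genes higher and 1 lower, S100a8 (2.52 to 4.47 and 0.988 to 1.44 CPM, edgeR adjusted p = 0.0427). The other 4 tested neutrophil genes, Cxcr2, S100a9, Camp and Retnlg, overlapped between the groups and were not called, with log2 fold changes of -2.48 to 0.55 and edgeR adjusted p-values of 0.0918 to 0.883, and Ly6g was at 0 CPM in 5 of 6 libraries. The part of these cell types in the Alpl result was not tested. The 3 genes with profiles most like Alpl, by the root-mean-square difference of centred log2 CPM over the 6 libraries, were Tbrg4 (0.117), Mcat (0.126) and Stx18 (0.131), out of 13377 genes.

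Because Alpl was the called gene, the 250 bases before each of its 2 RefSeq start sites are shown, with the E-box letters CAGCTG and CACCTG, the nuclear receptor half-site AAGGTCA and the TATA letters TATAAA in capitals where they occur on either strand (chr4:137796385-137796634, minus strand and chr4:137766476-137766725, minus strand, GRCm38.p6). The reads counted per gene do not tell which start was used.
Alpl first start: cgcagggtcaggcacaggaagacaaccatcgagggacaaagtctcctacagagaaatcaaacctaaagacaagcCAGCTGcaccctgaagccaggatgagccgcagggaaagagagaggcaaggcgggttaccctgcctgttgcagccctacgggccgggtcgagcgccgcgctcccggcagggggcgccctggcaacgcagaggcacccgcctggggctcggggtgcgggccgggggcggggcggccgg
Alpl second start: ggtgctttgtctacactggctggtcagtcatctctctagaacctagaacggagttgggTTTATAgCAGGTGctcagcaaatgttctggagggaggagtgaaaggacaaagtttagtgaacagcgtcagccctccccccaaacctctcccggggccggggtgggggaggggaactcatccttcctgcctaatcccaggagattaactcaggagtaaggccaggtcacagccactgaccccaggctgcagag
Reverse-strand matches appear as their reverse complement, and no match overlapped another. The first held 1 CAGCTG and the second held 1 CACCTG and 1 TATAAA, all motifs that 12.4% to 17.2% of 32817 RefSeq promoters of this length contain. Neither start held AAGGTCA, which is found in 4.08% of them.

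Ckmt2 (ENSMUSG00000021622, chromosome 13, 92001506 to 92025004), the mitochondrial creatine kinase of striated muscle, was at 27.9, 119 and 176 CPM with vehicle and at 262, 61.7 and 1.6 CPM with rebamipide. The highest and the lowest of all 6 libraries were both in the rebamipide group, 164-fold apart. The mean was 107 ± 74.6 CPM against 108 ± 136 CPM (SD, n = 3), with a log2 fold change of 0.01 ± 1.44 (standard error, edgeR adjusted p = 0.995) that was -0.02 with RLE size factors and -0.44 with scaling by total counts alone. Without rebamipide library 3 it was 0.60 (edgeR adjusted p = 0.672).

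Ckm (ENSMUSG00000030399, chromosome 7, 19138701 to 19156766) went through the same libraries in the same order. It was at 411, 1500 and 1961 CPM with vehicle and at 2824, 527 and 22 CPM with rebamipide. Its range over the 6 libraries was 128-fold, with a log2 fold change of -0.20 ± 1.41 (standard error, edgeR adjusted p = 0.926) that was 0.38 without rebamipide library 3. The ratio of Ckmt2 to Ckm, taken per length from the deposited FPKM, was 0.133, 0.155 and 0.176 with vehicle and 0.182, 0.229 and 0.143 with rebamipide. It spanned 1.72-fold, while the CPM of the genes spanned 164-fold and 128-fold, and the groups overlapped (two-sided exact permutation test on the log2 ratio, p = 0.4, where the smallest possible is 0.1).

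The fast skeletal muscle list followed the same course, at 7.69, 9.54 and 9.88 log2 CPM with vehicle and 10.28, 8.17 and 3.85 with rebamipide, with 0 of its 9 tested genes called (Tnnc2, with 0 to 2 counts, was not tested). Such counts are low for a gene of fast muscle beside 1099 to 171766 for Tnnt3, and whether the counting missed Tnnc2 was not tested. Without it the list was at 9.06, 11.05 and 11.41 with vehicle and 11.75, 9.49 and 4.69 with rebamipide, an alternative added after seeing the data. The centred profile of the 10 genes differed from that of Ckmt2 by a root mean square of 0.33 log2 units (0.24 without Tnnc2), the smallest among 11 marker lists, and from the brown adipocyte list Ckmt2 differed by 4.12, the largest. The slow muscle list was higher in the first and second rebamipide libraries (5.51 and 4.29) than in any other (-1.68 to 0.15). Its groups did not overlap, and 4 of its 6 genes rose and 0 fell, where 14.1% and 6.51% of all genes did, and the median change was 5.78 on the log2 scale. Among 13377 genes the profiles most like Ckmt2 were those of Cacna1s (0.114), Cox6a2 (0.131) and Nmrk2 (0.155). Cacna1s encodes the calcium channel of skeletal muscle T-tubules, and Cox6a2 the striated muscle isoform of a cytochrome c oxidase subunit. With the fast muscle score as a covariate in edgeR, Ckmt2 had a log2 fold change of 0.37 with a standard error of 0.21, in place of 1.44 (adjusted p = 0.251). The slow muscle score gave -7.35 ± 2.28 (standard error, edgeR adjusted p = 0.0739), so the sign depended on which muscle list was used, and neither fit called the gene.

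The 250 bases before the starts of Ckmt2 and Ckm are shown for this pair, marked as above (chr13:91876886-91877135, minus strand and chr7:19410844-19411093, plus strand, GRCm38.p6).
Ckmt2: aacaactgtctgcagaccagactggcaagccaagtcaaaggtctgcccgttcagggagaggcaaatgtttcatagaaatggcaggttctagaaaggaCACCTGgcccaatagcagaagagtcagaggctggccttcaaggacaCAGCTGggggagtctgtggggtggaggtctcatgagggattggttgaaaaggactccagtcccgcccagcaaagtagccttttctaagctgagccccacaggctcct
Ckm: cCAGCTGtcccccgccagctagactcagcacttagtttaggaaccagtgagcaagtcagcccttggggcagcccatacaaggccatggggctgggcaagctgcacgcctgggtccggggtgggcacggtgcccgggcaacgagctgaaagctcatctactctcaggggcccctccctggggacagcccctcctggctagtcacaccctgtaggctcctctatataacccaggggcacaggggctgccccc
Both held 1 CAGCTG, which 13% of promoters contain, and Ckmt2 held 1 CACCTG as well (17.2% of promoters). Of the 7 members, the 6 listed in the RefSeq promoter table were searched, and of these Gatm held 1 CACCTG, Ckb 1 TATAAA and the first of 2 Ckmt1 starts 1 AAGGTCA and 1 TATAAA, while Gamt held 0 of the 4.

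**Figure D2:**
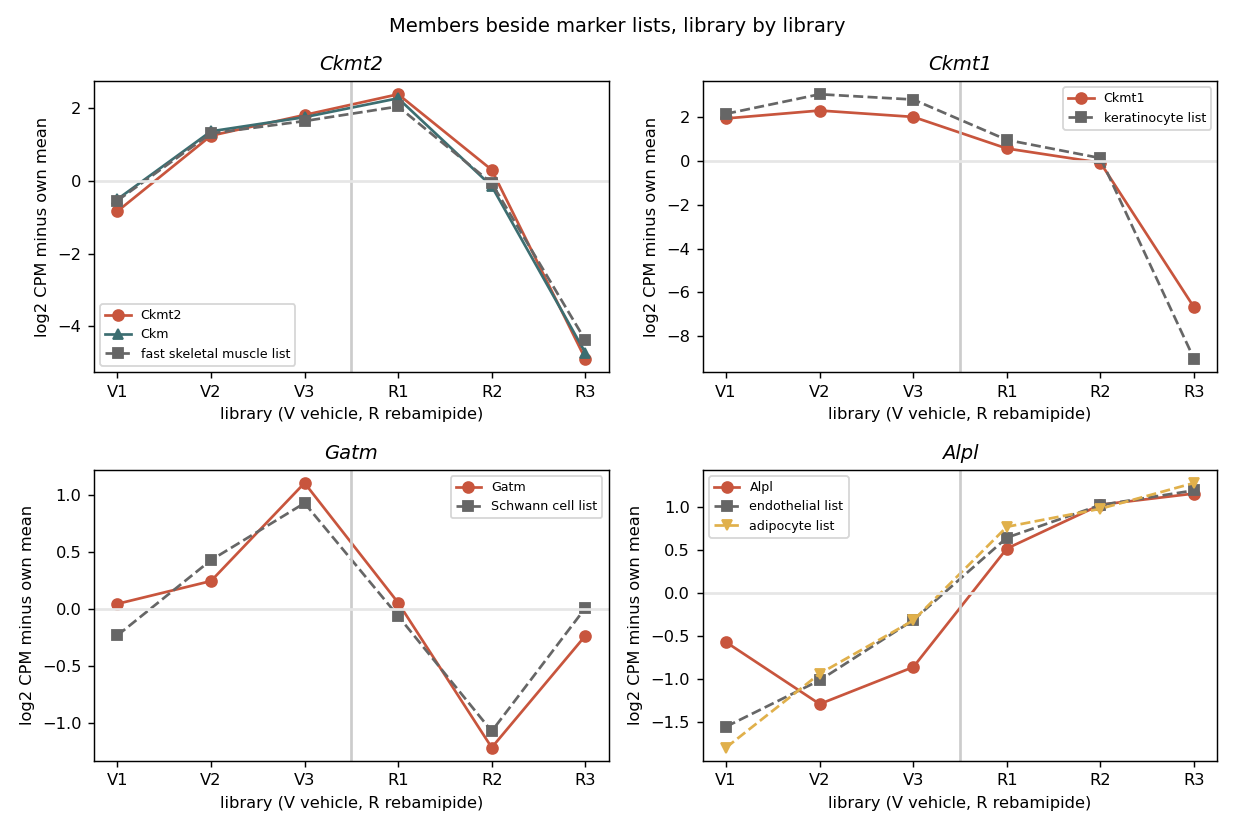
Log2 CPM of Ckmt2, Ckmt1, Gatm and Alpl minus the gene's own mean (y axis) in each library (x axis; V vehicle, R rebamipide), beside Ckm and marker lists treated alike; lines only join the points of one gene or list. Ckmt2, Ckm and the fast muscle list nearly coincide and fall furthest in the third rebamipide library.

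Ckmt1 (ENSMUSG00000000308, chromosome 2, 121188195 to 121194218), the mitochondrial creatine kinase of epithelia and brain, was at 59.8, 76.7 and 62.6 CPM with vehicle and at 23, 14.7 and 0.0763 CPM with rebamipide. Each rebamipide value lay below all vehicle values, and the third library held 2 counts, under the limit of 3 counts that a count of 0 allows. The mean was 66.4 ± 9.05 CPM against 12.6 ± 11.6 CPM (SD, n = 3), with a log2 fold change of -2.40 ± 1.34 (standard error, edgeR adjusted p = 0.226). Without rebamipide library 3 the standard error was 0.32 and Ckmt1 was called lower (-1.81 on the log2 scale, edgeR adjusted p = 0.0309). That fit called 382 of 15327 genes lower. The gene overlaps by 10 bases with Strc, on the opposite strand, which had 0 to 14 counts.

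The keratinocyte list (8 genes) lay lower with rebamipide too, at 8.88, 9.77 and 9.53 log2 CPM with vehicle and 7.69, 6.86 and -2.29 with rebamipide. Of its 8 genes 0 were called, where 14.1% of all genes were higher and 6.51% lower. Of 11 marker lists the keratinocyte list was the nearest to Ckmt1 (root mean square 1.07), and its part in the Ckmt1 values was not tested. Gatm was nearest to the Schwann cell list (0.20), which was at 5.01, 5.67 and 6.17 with vehicle and 5.18, 4.17 and 5.25 with rebamipide. Of its 6 genes 0 were called, beside the same shares of all genes. The genes most like Gatm were Plekha4 (0.164), Sox10 (0.216) and Prx (0.256), of which Sox10 is a transcription factor of neural crest and Schwann cells and Prx encodes periaxin of myelinating Schwann cells. For Ckb they were Nelfe (0.060), Ubr7 (0.067) and Dtymk (0.069), of which Nelfe encodes a subunit of the negative elongation factor and Dtymk encodes thymidylate kinase.

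Per length, muscle-type kinases made up most creatine kinase RNA in 5 of the 6 libraries. The summed FPKM of Ckb, Ckm, Ckmt1 and Ckmt2 was 254, 783 and 1000 with vehicle and 1083, 179 and 16.3 with rebamipide. Ckm took 70.8% to 83.1% of it in every library but the third rebamipide library, where it took 35%. Ckb took 7.71%, 1.45% and 1.25% with vehicle and 1.01%, 4.93% and 59.9% with rebamipide. The high Ckb share thus belonged to 1 library, in which Ckb itself was at 9.74 FPKM, while Ckm was at 5.7 FPKM. Ckb was at 8.85 to 10.95 FPKM over the rebamipide libraries and at 11.4 to 19.6 FPKM with vehicle. The groups overlapped in Ckb share (two-sided exact permutation test, p = 0.7, smallest possible 0.1). Without rebamipide library 3 the difference in mean Ckb share, rebamipide minus vehicle, was -0.498 percentage points, in place of 18.5. Ckmt1 took 3.03% to 12% with vehicle and 0.142% to 2.45% with rebamipide.

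**Figure D3:**
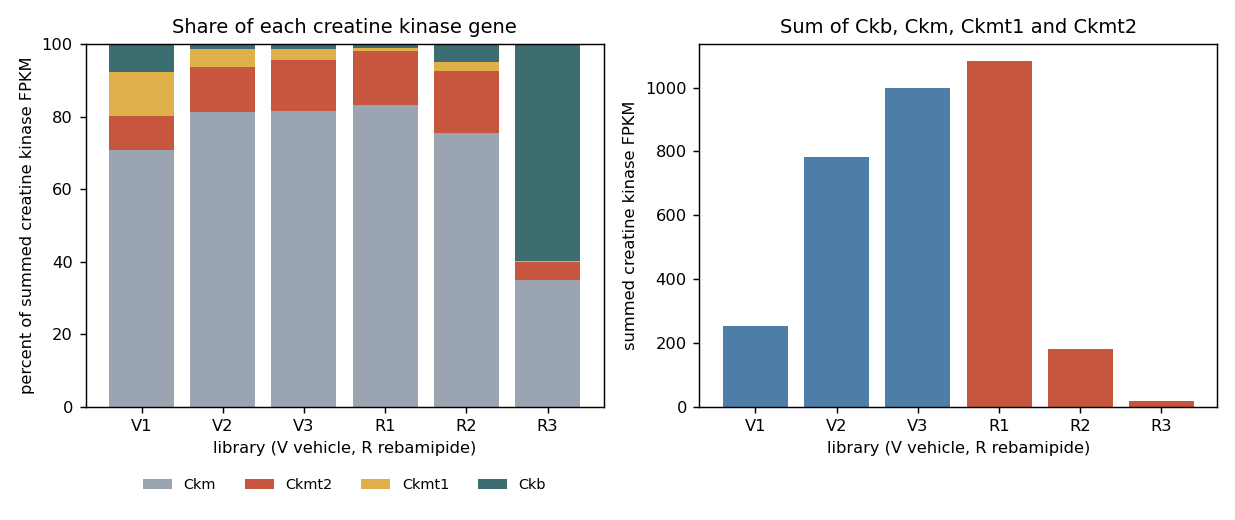
Left, percent of the summed creatine kinase FPKM (y axis) taken by each of 4 genes in each library (x axis; V vehicle, R rebamipide); right, the sum itself in FPKM. Ckb fills 59.9% of the third rebamipide library, whose sum is only 16.3 FPKM.

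By deposited FPKM, the order of levels among the members with vehicle was led by Ckmt2 (24 to 143) and Ckmt1 (30.4 to 37.9), followed by Slc6a8 (17.6 to 27), Ckb (11.4 to 19.6), Gatm (8.37 to 16.6), Gamt (3.7 to 7.77) and Alpl (1.62 to 2.76). Neighbours in this order overlapped, apart from Ckmt1 and Slc6a8, Gatm and Gamt, and Gamt and Alpl. In the rebamipide libraries Alpl was at 4.27, 4.88 and 5.41 FPKM and Gatm at 6.12, 2.03 and 4.06 FPKM, so that these 2 overlapped.

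Genes around the pathway were read from lists beside the members. Of 9 tested genes of phosphate transfer besides the members, Ckm included, 2 rose (all genes, 14.1%) and 0 fell, and the median change was 0.01 on the log2 scale. Ak3, the matrix adenylate kinase, rose by 2.00 on the log2 scale (edgeR adjusted p = 0.0165), from 91.8 to 173 CPM up to 359 to 628 CPM. Ak5, a cytosolic adenylate kinase, was at 1.93 to 2.82 CPM and 0.779 to 1.19 CPM (edgeR adjusted p = 0.0688). Ckm was the highest of the list by FPKM averaged over the 6 libraries, though not in rebamipide library 3.

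Of 5 tested partners of mitochondrial creatine kinase, the ADP/ATP carriers and outer membrane channels, 1 rose (all genes, 14.1%) and 0 fell, and the median change was 0.60 on the log2 scale. This was Vdac2, at 138 to 162 CPM with vehicle and 294 to 403 CPM with rebamipide (log2 fold change 1.28, edgeR adjusted p = 0.0153). The ADP/ATP carrier Slc25a5, the highest by FPKM averaged over the 6 libraries though not in each, was at 285 to 463 and 444 to 607 CPM (edgeR adjusted p = 0.158), and the channel Vdac3 at 117 to 217 and 223 to 297 CPM (edgeR adjusted p = 0.166).

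Of 13 tested genes that supply arginine, glycine and methyl groups, 1 rose (all genes, 14.1%) and 0 fell, and the median change was -0.60 on the log2 scale. The riser was Mat2b, the regulatory subunit of methionine adenosyltransferase, at 56.7 to 62.8 CPM with vehicle and 83.8 to 116 CPM with rebamipide (log2 fold change 0.78, edgeR adjusted p = 0.0352). Ass1 (argininosuccinate synthase) was at 12.3 to 133 and 4.96 to 14.2 CPM (edgeR adjusted p = 0.0572). Oat, ornithine aminotransferase and the highest of the list by FPKM averaged over the 6 libraries though not in each, was at 156 to 272 and 143 to 247 CPM.

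Of 5 tested genes of alkaline phosphatase and phosphate handling other than Alpl, 0 rose and 1 fell (all genes, 6.51%), and the median change was -0.11 on the log2 scale. Enpp1, which makes the pyrophosphate that Alpl removes, fell by 2.80 on the log2 scale (edgeR adjusted p = 0.0296), from 36.6, 21 and 10.5 CPM to 5.33, 2.65 and 1.75 CPM. Phospho1, a phosphatase that works with Alpl in mineralization, was at 0.1, 0.487 and 1.22 CPM and at 3.72, 3.78 and 3.74 CPM, with no overlap between the groups (log2 fold change 2.63, edgeR adjusted p = 0.0684). Ank, which exports pyrophosphate and was the most abundant by FPKM, was at 60.7 to 124 and 148 to 182 CPM (edgeR adjusted p = 0.141). The other alkaline phosphatase genes in the table, Alpi, Alppl2 and Akp3, had 0 CPM in every library, which allows up to 3 counts in each, or 0.0601 to 0.117 CPM, for counting error only.

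**Figure D4:**
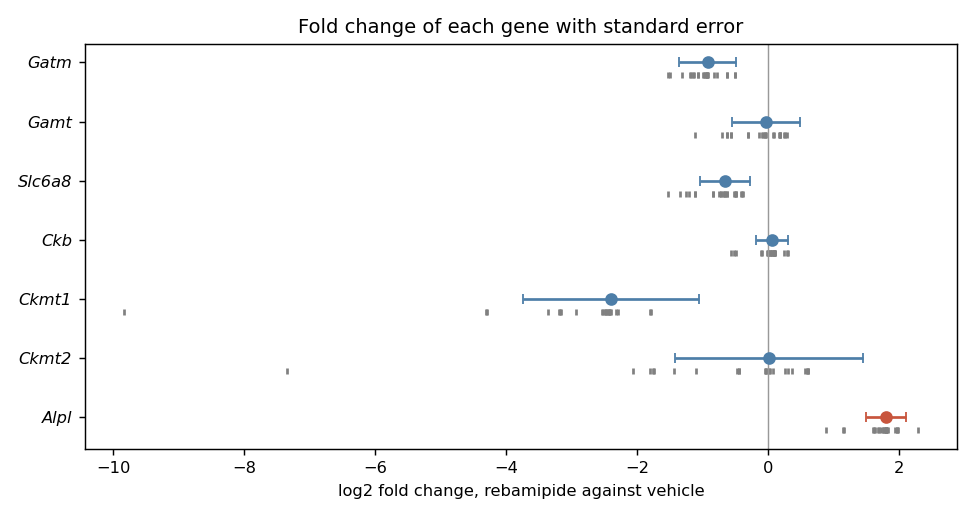
Log2 fold change of rebamipide against vehicle (x axis) for each of the 7 genes, with points and bars for the edgeR estimate and its standard error (red, adjusted p-value under 0.05; blue, not called) and grey ticks for 22 or 23 alternative fits. Alpl alone stays above 0 in every fit, and the intervals of Ckmt1 and Ckmt2 are the widest.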

How the data were processed

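RNA-seq of dorsal skin from 3 vehicle and 3 rebamipide-treated mice was analysed from 1 deposited table. Its read counts, deposited by the authors without normalization, and the FPKM, scaled by the authors by gene length and total counts, were used. The submitters' processing notes name fastp 0.22.0, HISAT2 2.1.0, HTSeq 0.9.1 and build GRCm39. Strand and multi-mapping settings are not given in the sources used here. Sequences came from RefSeq tables for GRCm38.p6, whose coordinates were not mixed with those of the counts.

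The 7 members and the gene lists were chosen with earlier results of these data known. Named are all members, Ckm, the 3 genes closest in profile to each of 4 members and, per pathway list, those leading by p-value (at most 3) or by FPKM (1), except that some are not reported here. Marker lists are given by level and counts, with single markers picked after values were seen, and the likeness of members to marker lists was added then too. The tests used R 4.3.3 and edgeR 4.0.16 (TMM, filterByExpr, quasi-likelihood test, Benjamini-Hochberg adjustment over all 14875 genes). Normalized CPM use TMM effective library sizes, log2 CPM a prior count of 2, and standard errors are the log2 fold change over the root of the F statistic. DESeq2 1.42.0, limma 3.58.1, other normalizations and filters, a replicate block, muscle covariates and leaving out each library were alternatives. The tests were checked on simulated counts. Replicates of a group differed by a chi-square of 78.6 to 757.2 per degree of freedom, so none was a duplicate. Total counts were 32709801 to 39915276 with TMM factors of 0.746 to 1.279, and counts from mitochondrial genes took 2.59% to 5.36% in the vehicle and 13.3% to 22% in the rebamipide libraries. The labels number the replicates without naming animals, and the study's methods give 3 mice per group, so p-values measure the spread between these libraries.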

Additional observations from a re-analysis of the deposited data

How the results depend on the processing

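The log2 fold change of Alpl was positive in all 23 alternative fits (0.89 to 2.29) and its call was lost in 2, without the second vehicle or the second rebamipide library by edgeR. Gatm (-1.53 to -0.50), Slc6a8 (-1.53 to -0.38) and Ckmt1 (-9.83 with the slow muscle score to -1.78) were negative in every fit that gave a value, and Ckmt1 could not be fitted with at least 10 counts in every sample. Ckmt1 was called lower in 4 fits, Slc6a8 in 2 (both without the first rebamipide library) and Gatm in 2 (both on FPKM). Without the first rebamipide library, 1971 of 15345 genes were lower by edgeR and 4189 by DESeq2. On FPKM, 4570 and 4698 of 14875 genes were lower. Ckmt1 was called on log2(FPKM + 1), with the slow muscle score (1125 of 14875 genes lower) and without rebamipide library 3 (382 by edgeR and 1875 by DESeq2, of 15327). Signs turned only for genes that were not called. Ckb was -0.56 with scaling by total counts alone, -0.00418 with at least 10 counts in every sample, -0.0106 with the fast muscle score as covariate, -0.48 with limma on log2(FPKM + 1) and -0.52 on log2(FPKM + 0.1), and -0.10 to 0.31 when single libraries were left out. Ckmt2 was -0.0246 with RLE size factors, -0.44 with total counts alone, -0.0248 with DESeq2, -1.43 with limma-voom, -0.0477 with at least 10 counts, -1.74 and -2.06 on the same FPKM scales, and -1.80 to 0.62 with single libraries left out. With the slow muscle score as covariate Ckmt2 was -7.35 (adjusted p = 0.0739), Ckm -7.19 (adjusted p = 0.0615) and 1 member was called lower, Ckmt1, while with the fast muscle score Ckmt2 was 0.37 (adjusted p = 0.251). The cause was not tested. Gamt was 0.29 with the fast muscle score and -0.63 to 0.27 with single libraries left out, and Ckm -2.26 to 0.40. The number of members called higher was 0 to 1, and called lower 0 to 1, when libraries were left out.

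Over all genes, 2093 were higher and 968 lower. Total counts alone gave 1258 and 3752 (25.1% higher), DESeq2 gave 2534 lower, at least 10 counts 1512 lower, and the slow muscle score 1388 higher. Leaving out libraries gave 0 to 3657 higher and 0 to 4189 lower over edgeR and DESeq2, with 0 in each direction by edgeR without the second vehicle library (4116 at an unadjusted p-value under 0.05, and 2092 higher by DESeq2). The fit with the replicate number as a block gave -1.09 for Ckmt2 and called Alpl (adjusted p = 0.0475). Libraries with the same number did not deviate together (correlations -0.036 to -0.002), so no pairing by number was seen. Whether they shared a batch was not tested. The difference in Ckb share of creatine kinase FPKM was -0.498 to 28.9 percentage points when single libraries were left out, with the negative value without rebamipide library 3.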
